A study of Arabidopsis thaliana with 18 samples.

Results

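A total of 42 Arabidopsis thaliana genes had more RNA in every seedling library with the atchz1ab mutations than in any library of the matching line without them, in 3 genetic backgrounds at once. They were chosen from 33602 counted genes by a rule on CPM, the reads of a gene scaled to the total of its library. The rule was applied to the 18215 nuclear genes that averaged at least 1 CPM over the 18 libraries. For each of 3 pairs of lines, the lowest of the 3 libraries with atchz1ab had to exceed the highest of the 3 without, and the ratio of mean CPM had to reach 1.2. In all, 155 genes were apart upward in the 3 pairs at any ratio, and 51 of them, 0.28% of the genes the rule was applied to, also reached the ratio. The rule then names 10 genes to be left out (AT3G27630, AT3G27060, AT5G24280, AT4G02390, AT5G48720, AT4G21070, AT5G20850, AT5G14490, AT5G64060 and AT3G41979). Of these, 9 met it, which leaves the 42 members, and AT5G14490 did not. Differences within these 3 pairs chose the members, so they are given as a description, with no test.

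The lines were atchz1ab, mutated in both AtChz1 genes, against the wild type Col-0, then atchz1ab hta9hta11 against hta9hta11, and atchz1ab arp6 against arp6. The hta9hta11 lines carry the alleles hta9-1 and hta11-2 and the arp6 lines carry arp6-1, all in the Col-0 ecotype. Each genotype had 3 libraries of poly(A) RNA from whole seedlings, which were 14 days old and had grown on MS medium at 22 °C in days of 16 h light and 8 h dark. In RNA from whole seedlings, fewer cells of a type and less RNA per cell cannot be told apart. The labels name 1 line per genotype and do not say whether replicates were grown separately, so the spread behind the p-values may be only technical.

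As background, H2A.Z is a variant of histone H2A that sits in the first nucleosomes of genes. H2A.Z proteins are encoded by HTA9 and HTA11 among others, ARP6 belongs to the SWR1 complex, which swaps H2A for H2A.Z, and Chz1 is known from yeast as a chaperone that hands H2A.Z to SWR1. In plants, DNA damage is answered through the kinases ATM and ATR and the transcription factor SOG1, which binds promoters at CTT followed, after any 7 bases, by AAG, and switches on repair genes, cell cycle inhibitors and the NAC factor NAC044.

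The libraries held 7163359 to 10744318 counts. ARP6 had 0 to 1 counts in the arp6 lines and 205 to 285 counts in the others, and HTA11 had 0.377 to 1.40 CPM in the hta9hta11 lines and 16.6 to 21.2 CPM in the others. HTA9 kept part of its reads, at 44.9 CPM or less in the hta9hta11 lines and 89.0 CPM or more in the others. The AtChz1 transcripts were not analysed here. AT1G44770 had 0 to 1 counts in the 9 libraries labelled atchz1ab and 274 to 394 counts in the other 9, so the label and this gene split the libraries alike. Organelle genes took 1.59% to 1.77% of the counts in lines with atchz1ab and 2.08% to 2.21% in lines without. With CPM taken on nuclear genes alone, 39 of the 42 members met the rule.

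All 42 members are protein-coding and matched the RefSeq annotation, whose TAIR10.1 coordinates are given below. They were mostly genes of low level, with a median of 7.56 CPM over the 18 libraries against 18.2 CPM for all genes the rule was applied to, and a range of 1.00 to 37.8 CPM. Their median gene length, 2449.5 bases, was close to the 2469 bases of all genes. The size of the difference varied widely. The median ratio of mean CPM was 1.78 in atchz1ab over Col-0, 1.53 in atchz1ab hta9hta11 over hta9hta11 and 1.94 in atchz1ab arp6 over arp6, while the medians over all genes were 0.999, 1.01 and 1.04. The largest of a member's 3 ratios was that of the arp6 pair for 23 members, of the Col-0 pair for 10 and of the hta9hta11 pair for 9. GEX1, with 0 counts in both hta9hta11 and arp6, was tied between these pairs and was counted under hta9hta11. A ratio of at least 2 was reached by 16 members in the Col-0 pair, 13 in the hta9hta11 pair and 20 in the arp6 pair, and 9 members reached it in all 3. At the other end, 26 members were under 1.5 in at least 1 pair. With CPM on library sizes after TMM scaling, 35 of the 42 met the rule, and the 7 that did not were AHP2, AT2G21640, AT3G02820, ABCC9, CYP81D8, AT5G03440 and AT5G25230.

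**Figure D1:**
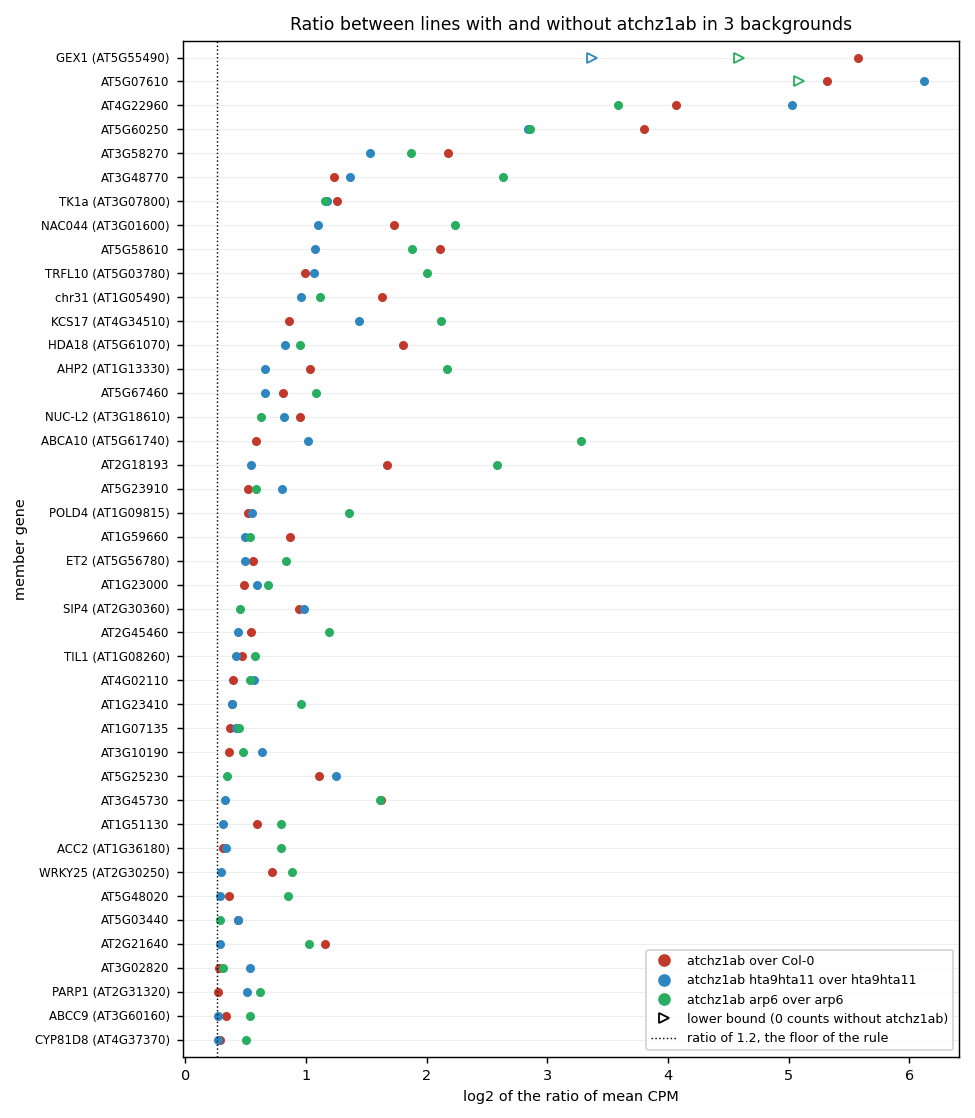
Log2 of the ratio of mean CPM (x axis) for each of the 42 members (y axis), as 1 point per pair of lines; open triangles are lower bounds where the line without atchz1ab had 0 counts, and the dotted line is the ratio of 1.2 that the rule asks for. The members run from 3 genes with ratios above 10 in all 3 pairs at the top to genes near 1.2 in some pair at the bottom.

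For comparison with a test over all genes, edgeR's quasi-likelihood test with Benjamini-Hochberg adjustment over 18906 genes (called at an adjusted p under 0.05) put 33 of the 42 members higher in atchz1ab than in Col-0, where 11.7% of all genes were called, 6.15% higher and 5.55% lower. It put 22 higher in atchz1ab hta9hta11 than in hta9hta11, where 1.75% of all genes were called, 0.793% higher and 0.952% lower. It put 35 higher in atchz1ab arp6 than in arp6, where 14.6% were called, 6.63% higher and 8.01% lower. No member was called lower. Since these contrasts chose the members, nothing is read from these counts.

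The 3 members with the largest ratios were close to silent in the lines without atchz1ab. GEX1 (AT5G55490, chromosome 5, 22478712 to 22481937) encodes a membrane protein known for its role in gametes and in the fusion of nuclei after fertilisation. It had 1.67, 2.57 and 1.85 CPM in atchz1ab against 0, 0 and 0.128 CPM in Col-0. GEX1 had 1.58, 0.677 and 1.15 CPM in atchz1ab hta9hta11 against 0, 0 and 0 CPM in hta9hta11, and 1.48, 2.6 and 4.34 CPM in atchz1ab arp6 against 0, 0 and 0 CPM in arp6. Reads of GEX1 were thus at or near absent in all 9 libraries without atchz1ab and present in all 9 with it. Summed over 3 libraries it had 54 counts in atchz1ab and 1 in Col-0, a ratio of 50.9 with a 95% counting interval of 8.76 to 2048. The other pairs had 33 counts against 0, at least 10.3-fold higher in atchz1ab hta9hta11 than in hta9hta11, and 64 counts against 0, at least 24.1-fold higher in atchz1ab arp6 than in arp6, with the floor at 3 counts over the group.

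AT5G07610 (chromosome 5, 2406068 to 2407330), an F-box protein of the type that picks targets for ubiquitin ligases, had 2.34, 4.02 and 3 CPM in atchz1ab against 0, 0.107 and 0.128 CPM in Col-0. AT5G07610 had 1.68, 2.26 and 3.57 CPM in atchz1ab hta9hta11 against 0, 0 and 0.108 CPM in hta9hta11, and 3.58, 2.47 and 5.7 CPM in atchz1ab arp6 against 0, 0 and 0 CPM in arp6. Again no library without atchz1ab came near one with it. Its summed counts were 83 in atchz1ab and 2 in Col-0, 39.1 times as many with an interval of 10.5 to 328, and 69 in atchz1ab hta9hta11 and 1 in hta9hta11, 64.8 times as many with an interval of 11.3 to 2597. In atchz1ab arp6 it had 90 counts and in arp6 0, at least 33.9-fold higher in atchz1ab arp6. AT4G22960 (chromosome 4, 12030020 to 12033380) encodes a protein like FAM63A, which in human removes ubiquitin from proteins. It had 5.35, 4.8 and 5.2 CPM in atchz1ab against 0.252, 0.537 and 0.128 CPM in Col-0. AT4G22960 had 3.35, 3.61 and 4.15 CPM in atchz1ab hta9hta11 against 0, 0.126 and 0.215 CPM in hta9hta11, and 4.69, 6.1 and 5.97 CPM in atchz1ab arp6 against 0.694, 0.14 and 0.559 CPM in arp6. With 3 counts in hta9hta11 and 104 in atchz1ab hta9hta11, the ratio of that pair was 32.6, with an interval of 10.8 to 160.5, and the ratios of mean CPM in the other pairs were 16.7 over Col-0 and 12.03 over arp6. The next member by smallest ratio stood at 7.17.

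That member, AT5G60250 (chromosome 5, 24252138 to 24255900), encodes a zinc finger protein of the RING type, a fold common in ubiquitin ligases. It had 7.69, 9.16 and 9.59 CPM in atchz1ab against 0.63, 0.752 and 0.512 CPM in Col-0. AT5G60250 had 9.31, 10.9 and 8.19 CPM in atchz1ab hta9hta11 against 0.857, 1.38 and 1.72 CPM in hta9hta11, and 31.9, 31.5 and 31.1 CPM in atchz1ab arp6 against 3.47, 3.07 and 6.49 CPM in arp6. The groups of each pair stood far apart, and arp6 already had more than Col-0 and hta9hta11. AT3G58270 (chromosome 3, 21575749 to 21577845), a protein with a TRAF-like domain, had 9.81, 9.49 and 9.24 CPM in atchz1ab against 1.76, 2.26 and 2.3 CPM in Col-0. AT3G58270 had 8.56, 8.23 and 9.34 CPM in atchz1ab hta9hta11 against 2.78, 3.27 and 3.02 CPM in hta9hta11, and 6.91, 3.24 and 6.92 CPM in atchz1ab arp6 against 1.78, 1.54 and 1.34 CPM in arp6, which are ratios of 4.51, 2.88 and 3.66 over Col-0, hta9hta11 and arp6. AT3G48770 (chromosome 3, 18078452 to 18087414), annotated as binding ATP and DNA, had 2.9, 3.02 and 1.96 CPM in atchz1ab against 1.26, 0.43 and 1.66 CPM in Col-0. AT3G48770 had 1.86, 2.03 and 3 CPM in atchz1ab hta9hta11 against 1.07, 0.629 and 0.969 CPM in hta9hta11, and 7.15, 8.05 and 5.56 CPM in atchz1ab arp6 against 0.694, 0.977 and 1.68 CPM in arp6. Its ratio was 6.20 in the arp6 pair, above the 2.35 and 2.58 of the Col-0 and hta9hta11 pairs. Its summed counts of 27 in Col-0, 24 in hta9hta11 and 29 in arp6 leave these ratios imprecise. It shares 199 of its 8963 bases with AT3G07995 on the other strand.

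**Figure D2:**
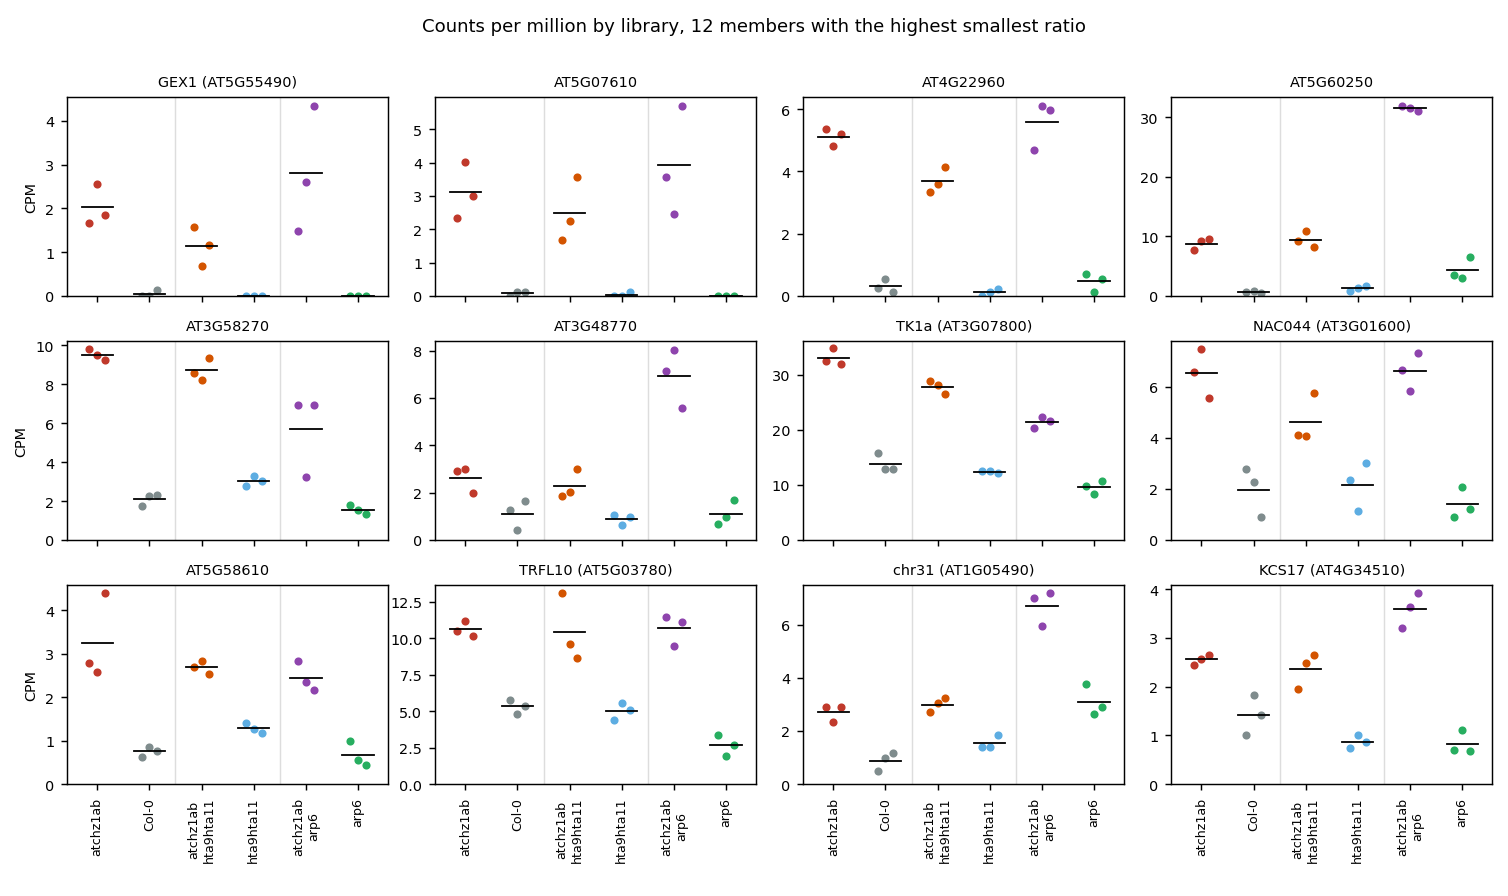
CPM (y axis, from 0) in each of the 3 libraries of 6 genotypes (x axis) for the 12 members with the highest smallest ratio, with 1 panel per gene; points are libraries and black bars are means. In every panel the 3 points of each line with atchz1ab lie above the 3 points of the line to its right, as the rule requires.

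Annotation places 9 members in DNA replication, recombination, repair or the response to DNA damage, or gives them domains known from such proteins. This grouping was made by hand after their values were seen, and AT3G48770, annotated as binding ATP and DNA, was left out of it. The share of all genes that such a grouping would take in was not counted, so nothing is read from the number 9. GEX1, described above, is not counted among the 9 but stands in the wider DNA damage list given below. NAC044 (AT3G01600, chromosome 3, 229075 to 231517), a transcription factor known to stop the cell cycle after DNA damage, had 6.58, 7.48 and 5.55 CPM in atchz1ab against 2.77, 2.26 and 0.896 CPM in Col-0. NAC044 had 4.1, 4.06 and 5.76 CPM in atchz1ab hta9hta11 against 2.36, 1.13 and 3.02 CPM in hta9hta11, and 6.66, 5.84 and 7.32 CPM in atchz1ab arp6 against 0.892, 2.09 and 1.23 CPM in arp6. Every library with atchz1ab stood above all 9 libraries without it, and the ratios were 3.31, 2.14 and 4.70 over Col-0, hta9hta11 and arp6. TK1a (AT3G07800, chromosome 3, 2489387 to 2491180), a thymidine kinase that salvages DNA precursors, had the most even ratios of the 9 members at 2-fold or more in all pairs. It had 32.5, 34.8 and 31.9 CPM in atchz1ab against 15.8, 12.9 and 12.9 CPM in Col-0. TK1a had 28.9, 28.1 and 26.5 CPM in atchz1ab hta9hta11 against 12.4, 12.6 and 12.1 CPM in hta9hta11, and 20.3, 22.3 and 21.6 CPM in atchz1ab arp6 against 9.81, 8.38 and 10.6 CPM in arp6. The 3 ratios were 2.39, 2.25 and 2.23, so that the lower level in arp6 went with a lower level in atchz1ab arp6.

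Among subunits of the DNA polymerases, POLD4 (AT1G09815, chromosome 1, 3189301 to 3190242), a small subunit of polymerase delta, had 20.9, 20.3 and 20.2 CPM in atchz1ab against 13.4, 16 and 13.6 CPM in Col-0. POLD4 had 20.9, 19 and 19.9 CPM in atchz1ab hta9hta11 against 16.3, 12.3 and 12.3 CPM in hta9hta11, and 16.4, 17.1 and 15.2 CPM in atchz1ab arp6 against 6.84, 6.14 and 6.04 CPM in arp6. Its arp6 ratio of 2.56 stood above the 1.43 and 1.46 of the Col-0 and hta9hta11 pairs with arp6 itself low. TIL1 (AT1G08260), the catalytic subunit of polymerase epsilon, had 40.6, 37.9 and 42.2 CPM in atchz1ab against 31.3, 26.2 and 29.8 CPM in Col-0. TIL1 had 37.1, 37.3 and 37.6 CPM in atchz1ab hta9hta11 against 28.7, 31.2 and 24.1 CPM in hta9hta11, and 44, 39.6 and 43.8 CPM in atchz1ab arp6 against 30.5, 26.9 and 27.9 CPM in arp6. TIL1 thus differed by a similar small factor everywhere, 1.38, 1.33 and 1.49 over Col-0, hta9hta11 and arp6. It shares 1756 bases with AT1G08250 and 624 with AT1G08270.

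PARP1 (AT2G31320, chromosome 2, 13353748 to 13359750), a poly(ADP-ribose) polymerase that marks broken DNA, lay near the threshold of the rule. It had 16.6, 15.9 and 17.1 CPM in atchz1ab against 15.4, 11.5 and 14.2 CPM in Col-0. PARP1 had 16.9, 17.6 and 16.8 CPM in atchz1ab hta9hta11 against 11, 12.8 and 12.2 CPM in hta9hta11, and 18.7, 19.6 and 18.8 CPM in atchz1ab arp6 against 13.5, 12.6 and 11.2 CPM in arp6, and its smallest ratio, over Col-0, was 1.21. AT1G51130, the Nse4 subunit of the SMC5/6 complex of DNA repair, averaged 7.25 ± 2.03 CPM in atchz1ab against 4.81 ± 0.259 CPM in Col-0, 6.01 ± 0.451 against 4.83 ± 0.478 CPM in atchz1ab hta9hta11 and hta9hta11, and 5.53 ± 0.398 against 3.18 ± 0.597 CPM in atchz1ab arp6 and arp6 (SD, n = 3 each). AHP2 (AT1G13330), the homologue of the recombination factor Hop2, which pairs chromosomes in meiosis, had 5.58, 4.91 and 5.78 CPM in atchz1ab against 2.52, 2.36 and 3.07 CPM in Col-0. AHP2 had 3.82, 3.5 and 3.11 CPM in atchz1ab hta9hta11 against 3.11, 1.89 and 1.62 CPM in hta9hta11, and 3.82, 4.67 and 6.24 CPM in atchz1ab arp6 against 0.991, 0.838 and 1.45 CPM in arp6. The hta9hta11 pair was barely separated, and AHP2 shares 1151 of its 2664 bases with AT1G13340 on the other strand. TRFL10 (AT5G03780, chromosome 5, 999102 to 1001056), related to proteins that bind telomere repeats, had 10.5, 11.2 and 10.2 CPM in atchz1ab against 5.8, 4.83 and 5.38 CPM in Col-0. TRFL10 had 13.1, 9.59 and 8.65 CPM in atchz1ab hta9hta11 against 4.39, 5.53 and 5.06 CPM in hta9hta11, and 11.5, 9.47 and 11.1 CPM in atchz1ab arp6 against 3.37, 1.95 and 2.68 CPM in arp6, with ratios of 1.99, 2.09 and 4.003 over Col-0, hta9hta11 and arp6. AT2G45460, with an FHA domain of the kind that binds phosphorylated proteins, had ratios of 1.46, 1.35 and 2.28.

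The wider DNA damage list of 41 genes, chosen with earlier results of these data known, holds 3 members (NAC044, GEX1 and PARP1). The other 15 lists tried, 16 in all with 293 genes, hold none. Of the 37 genes of the DNA damage list that were tested and are not members, edgeR called 12 higher and 3 lower in atchz1ab against Col-0, 11 higher and 0 lower in atchz1ab hta9hta11 against hta9hta11, and 16 higher and 2 lower in atchz1ab arp6 against arp6. Over all genes tested, 6.15%, 0.793% and 6.63% were called higher in these comparisons. Other lists were called at least as often in atchz1ab against Col-0, among them photosynthesis with 20 of 24 tested genes (12 higher and 8 lower), salicylic acid and defence with 6 of 10 (all lower) and senescence with 5 of 9 (4 higher and 1 lower). In the hta9hta11 pair the seed list alone was called more often, with 7 of 12 tested genes, all higher. In the arp6 pair the lists called more often were photosynthesis (1 higher and 17 lower of 24), iron (1 higher and 4 lower of 7) and cell wall and expansion (2 higher and 8 lower of 18). The DNA damage genes include genes that met the rule but are left out of it, so these counts too are a description. Their median log2 fold changes were 0.17, 0.21 and 0.30. Between lines without atchz1ab, the same 37 genes had 0 called higher and 2 lower in hta9hta11 against Col-0, where 11.2% of all genes were called, with a median of -0.05, and 4 higher and 10 lower in arp6 against Col-0, with a median of -0.16. The share called in arp6, 37.8%, was under the share of all genes, 49.7%.

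Chromatin and nucleolar genes were put in another group by hand after their values were seen. Placed with them were zinc finger, nuclear pore and transcription genes whose annotation names neither chromatin nor the nucleolus. HDA18 (AT5G61070, chromosome 5, 24571095 to 24574387), a histone deacetylase known from root epidermal cells, had 2.01, 2.35 and 2.66 CPM in atchz1ab against 0.504, 0.859 and 0.64 CPM in Col-0. HDA18 had 2.79, 2.93 and 2.42 CPM in atchz1ab hta9hta11 against 2.14, 1.38 and 1.08 CPM in hta9hta11, and 5.06, 7.01 and 6.78 CPM in atchz1ab arp6 against 3.47, 2.23 and 4.03 CPM in arp6. chr31 (AT1G05490), a chromatin remodeler also known as CLSY3 that takes part in RNA-directed DNA methylation, had 2.9, 2.35 and 2.89 CPM in atchz1ab against 0.504, 0.967 and 1.15 CPM in Col-0. chr31 had 2.7, 3.05 and 3.23 CPM in atchz1ab hta9hta11 against 1.39, 1.38 and 1.83 CPM in hta9hta11, and 7.03, 5.97 and 7.19 CPM in atchz1ab arp6 against 3.77, 2.65 and 2.91 CPM in arp6. NUC-L2 (AT3G18610), one of the nucleolins, which act on ribosomal RNA genes, had 3.57, 3.24 and 2.66 CPM in atchz1ab against 2.39, 1.61 and 0.896 CPM in Col-0. NUC-L2 had 4.47, 5.41 and 4.27 CPM in atchz1ab hta9hta11 against 3, 2.89 and 2.15 CPM in hta9hta11, and 10.6, 8.05 and 11.8 CPM in atchz1ab arp6 against 7.63, 5.17 and 6.94 CPM in arp6. All 3 genes had the same order of mean levels: Col-0 was lowest, hta9hta11 next, arp6 higher still, and in each background the line with atchz1ab stood above. The step between hta9hta11 and Col-0 was not called for any of the 3, at log2 fold changes of 1.18 ± 0.43, 0.81 ± 0.40 and 0.71 ± 0.31. AT5G58610, a PHD finger protein of the kind that reads histone tails, had 2.79, 2.57 and 4.39 CPM in atchz1ab against 0.63, 0.859 and 0.768 CPM in Col-0. AT5G58610 had 2.7, 2.82 and 2.54 CPM in atchz1ab hta9hta11 against 1.39, 1.26 and 1.18 CPM in hta9hta11, and 2.84, 2.34 and 2.17 CPM in atchz1ab arp6 against 0.991, 0.558 and 0.447 CPM in arp6. AT3G02820, a zinc knuckle protein, and AT5G03440, a zinc finger protein, had smallest ratios of 1.21 and 1.22, and AT4G02110, annotated as a transcription coactivator, of 1.31. AT1G59660, a nucleoporin peptidase of the nuclear pore family, had ratios of 1.82, 1.41 and 1.45 over Col-0, hta9hta11 and arp6, and ET2 (AT5G56780), EFFECTOR OF TRANSCRIPTION2, had 1.47, 1.41 and 1.78.

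Several members are annotated in stress or detoxification or were grouped with them here. CYP81D8 (AT4G37370), a cytochrome P450, had 54.1, 56.5 and 55.7 CPM in atchz1ab against 44.9, 46 and 45.5 CPM in Col-0. CYP81D8 had 41.3, 42.2 and 39.7 CPM in atchz1ab hta9hta11 against 35.3, 33.8 and 33.1 CPM in hta9hta11, and 6.66, 4.93 and 5.15 CPM in atchz1ab arp6 against 3.96, 3.49 and 4.36 CPM in arp6. It was the member closest to the threshold, with a smallest ratio of 1.205, and in the arp6 lines it was down to a small part of its level elsewhere. WRKY25 (AT2G30250, chromosome 2, 12903208 to 12905338), a transcription factor of salt and heat responses, had 54.5, 56.6 and 57.4 CPM in atchz1ab against 34.5, 34.6 and 33.7 CPM in Col-0. WRKY25 had 45, 45.1 and 45.9 CPM in atchz1ab hta9hta11 against 34.6, 36.7 and 39.3 CPM in hta9hta11, and 20.6, 19.7 and 18.7 CPM in atchz1ab arp6 against 11.9, 8.24 and 11.9 CPM in arp6. The hta9hta11 pair was separated least, at a ratio of 1.23 against 1.64 over Col-0 and 1.85 over arp6. AT2G18193 (chromosome 2, 7917413 to 7919345), an ATPase of the P-loop family, had 106, 96.3 and 101 CPM in atchz1ab against 28.9, 32.9 and 33.4 CPM in Col-0. AT2G18193 had 51.2, 44.4 and 47.8 CPM in atchz1ab hta9hta11 against 34.3, 33.4 and 30.7 CPM in hta9hta11, and 12.1, 10.1 and 11.4 CPM in atchz1ab arp6 against 1.69, 2.23 and 1.68 CPM in arp6. Of all members it reached the highest mean level, in atchz1ab, and its lowest was in arp6. AT2G21640, described as a marker of oxidative stress, had 16.3, 14.4 and 14.6 CPM in atchz1ab against 7.69, 6.44 and 6.15 CPM in Col-0. AT2G21640 had 9.87, 8.69 and 9.57 CPM in atchz1ab hta9hta11 against 6.85, 8.67 and 7.54 CPM in hta9hta11, and 10.9, 13.1 and 9.49 CPM in atchz1ab arp6 against 6.24, 5.03 and 5.15 CPM in arp6, and its hta9hta11 ratio of 1.22 was the smallest.

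SIP4 (AT2G30360), a kinase that acts on a plasma membrane proton pump, had 14.3, 12.8 and 15.9 CPM in atchz1ab against 7.44, 7.41 and 7.55 CPM in Col-0. SIP4 had 11.9, 11.3 and 12.1 CPM in atchz1ab hta9hta11 against 5.25, 6.41 and 6.25 CPM in hta9hta11, and 9.37, 11.3 and 11.1 CPM in atchz1ab arp6 against 8.33, 7.82 and 7.05 CPM in arp6. SIP4 shares 1823 of its 1867 bases with AT2G30362 on the other strand, so its reads cannot be given to either gene if counting ignored strand, and the strand setting was not given. The same holds for AT1G23410, a ubiquitin and ribosomal protein S27a fusion, all of whose 885 bases lie within AT1G23400, which averaged 133 CPM. AT1G23410 averaged 7.98 ± 0.739 CPM in atchz1ab against 6.1 ± 1.18 CPM in Col-0, 10.4 ± 0.641 against 7.91 ± 0.634 CPM in atchz1ab hta9hta11 and hta9hta11, and 17.5 ± 0.817 against 8.98 ± 1.68 CPM in atchz1ab arp6 and arp6 (SD, n = 3 each). AT5G60250 shares 629 of 3763 bases with AT5G60260. WRKY25 and SIP4 were the closest members on a chromosome, 31629 bases apart with 6 expressed genes between them.

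Transporters and lipid enzymes were few. ABCA10 (AT5G61740, chromosome 5, 24808406 to 24812739), an ABC transporter, had 3.35, 2.12 and 2.77 CPM in atchz1ab against 1.51, 1.93 and 2.05 CPM in Col-0. ABCA10 had 2.51, 3.16 and 3.11 CPM in atchz1ab hta9hta11 against 1.5, 1.76 and 1.08 CPM in hta9hta11, and 4.81, 3.11 and 4.61 CPM in atchz1ab arp6 against 0.396, 0.558 and 0.336 CPM in arp6, and all 3 arp6 libraries were under 1 CPM. ABCC9 (AT3G60160), a transporter of the multidrug resistance family, had a smallest ratio of 1.21, and 4389 of its 6224 bases are 97.1% identical to AT3G60970, so that reads may be split between them. KCS17 (AT4G34510), an enzyme of very long chain fatty acid synthesis, had 2.45, 2.57 and 2.66 CPM in atchz1ab against 1.01, 1.83 and 1.41 CPM in Col-0. KCS17 had 1.95, 2.48 and 2.65 CPM in atchz1ab hta9hta11 against 0.75, 1.01 and 0.862 CPM in hta9hta11, and 3.21, 3.63 and 3.93 CPM in atchz1ab arp6 against 0.694, 1.12 and 0.671 CPM in arp6. ACC2 (AT1G36180), an acetyl-CoA carboxylase that makes the precursor of fatty acids, had ratios of 1.24, 1.26 and 1.73 over Col-0, hta9hta11 and arp6.

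The remaining members have varied roles. AT3G45730 (chromosome 3, 16789780 to 16790690), which has no known function, had 35, 42.3 and 37.1 CPM in atchz1ab against 12.7, 12.5 and 11.9 CPM in Col-0. AT3G45730 had 20.7, 21.4 and 25.2 CPM in atchz1ab hta9hta11 against 18.6, 17.9 and 17 CPM in hta9hta11, and 8.51, 8.17 and 7.46 CPM in atchz1ab arp6 against 2.58, 3.07 and 2.24 CPM in arp6. Its ratio was 1.26 in the hta9hta11 pair and 3.08 and 3.06 over Col-0 and arp6. AT5G48020, an oxygenase that uses iron and 2-oxoglutarate, had 49.8, 46.1 and 45.6 CPM in atchz1ab against 34.9, 38.6 and 37 CPM in Col-0. AT5G48020 had 45.6, 36.5 and 37.4 CPM in atchz1ab hta9hta11 against 31.6, 32.1 and 34.1 CPM in hta9hta11, and 41.1, 48.5 and 42.2 CPM in atchz1ab arp6 against 22.1, 25.4 and 25.7 CPM in arp6. AT5G67460, a glycosyl hydrolase, had ratios of 1.75, 1.58 and 2.12 over Col-0, hta9hta11 and arp6, and AT5G23910, a microtubule motor, of 1.43, 1.74 and 1.501. AT1G23000, of the heavy metal transport and detoxification family, had 1.40, 1.51 and 1.61. AT5G25230, of the family of elongation factor G, had 2.16, 2.38 and 1.27. AT1G07135, a glycine-rich protein, and AT3G10190, a calmodulin-like protein, had smallest ratios of 1.29 and 1.29. Just inside the threshold of 1.2 stood CYP81D8, at 1.205, with ABCC9 and PARP1 next, and just outside stood EXL3 (AT5G51550), AT2G33850 and the glucosyltransferase gene UGT74E2 (AT1G05680), at 1.1997, 1.198 and 1.191, all of them apart in the 3 pairs.

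The members were spread over the genome. Chromosomes 1 to 5 held 10, 6, 9, 4 and 13 of them, beside 4795, 2786, 3642, 2762 and 4230 of the genes the rule was applied to, so that chromosome 5 held 31.0% of the members and 23.2% of all genes. No members lay next to each other.

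Marker genes of other organs, of senescence and of photosynthesis were summed in the same libraries, and their part in the members was not tested. The 14 floral genes summed to 132.6 to 138.9 CPM in atchz1ab against 120.6 to 122.3 CPM in Col-0, 156.1 to 163.1 CPM in atchz1ab hta9hta11 against 142.0 to 150.8 CPM in hta9hta11, and 216.2 to 219.3 CPM in atchz1ab arp6 against 172.5 to 185.7 CPM in arp6, with none of the 14 at 0. In the hta9hta11 pair the summed difference did not describe most of that list, with 4 of its 10 tested genes above 0 and a median log2 fold change of -0.08. In the arp6 pair 5 of the 10 were above 0, with a median of 0.06. In the Col-0 pair 8 of the 10 were, with a median of 0.24. GEX1 is a gamete gene, and the part of floral tissue in the members was not tested. The 18 seed genes summed to 35.6 to 39.1 CPM in atchz1ab against 15.9 to 22.2 CPM in Col-0 and to 114 to 117 CPM in atchz1ab hta9hta11 against 60.5 to 64.9 CPM in hta9hta11, but to 10.1 to 12.6 CPM in atchz1ab arp6 against 19.3 to 21.7 CPM in arp6, and their part in the members was not tested. Of these 18 genes, 1 had 0 counts in atchz1ab hta9hta11 and 5 to 7 had 0 counts in each other genotype. The 14 root genes, of which edgeR tested 4, overlapped within each pair, at 53.9 to 57.3 CPM in atchz1ab against 52.3 to 56.4 CPM in Col-0, 57.7 to 58.7 CPM in atchz1ab hta9hta11 against 52.8 to 58.5 CPM in hta9hta11, and 56.0 to 62.1 CPM in atchz1ab arp6 against 51.8 to 58.6 CPM in arp6. The 10 senescence genes summed to 924 to 933 CPM in atchz1ab against 755 to 771 CPM in Col-0. Their sums were 1032 to 1067 against 1050 to 1075 CPM in the hta9hta11 pair and 693 to 714 against 593 to 609 CPM in the arp6 pair. The 24 photosynthesis genes summed to 75077 to 75431 against 73894 to 74423, 74093 to 74632 against 74912 to 75728, and 87474 to 89881 against 92368 to 93117 CPM in the Col-0, hta9hta11 and arp6 pairs.

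The rule said nothing of how the backgrounds differ from wild type, and here the members can be tested, although hta9hta11, arp6 and Col-0 are also the libraries with the lower values of each pair. In hta9hta11 against Col-0 few members were called: edgeR called 2 higher and 1 lower of 42, 7.14%, where 11.2% of all genes were called (5.98% higher and 5.26% lower), and their median log2 fold change was -0.01. The uncharacterised gene AT3G45730 rose, with 18.6, 17.9 and 17 CPM in hta9hta11 against 12.7, 12.5 and 11.9 CPM in Col-0 (log2 fold change 0.54 ± 0.12, edgeR adjusted p = 0.000303). ABCC9 rose as well, with 18.9, 17.7 and 20.8 CPM in hta9hta11 against 11.1, 13.9 and 16.4 CPM in Col-0 (0.49 ± 0.11, edgeR adjusted p = 0.000781). CYP81D8 fell, with 35.3, 33.8 and 33.1 CPM in hta9hta11 against 44.9, 46 and 45.5 CPM in Col-0 (-0.40 ± 0.08, edgeR adjusted p = 3.51e-05). In each of these 3 genes the libraries of the 2 genotypes did not overlap.

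The arp6 mutation moved the members in both directions. In arp6 against Col-0, edgeR called 8 members higher and 12 lower, 47.6% of the 42, where 49.7% of all genes were called (24.2% higher and 25.5% lower), so that the number called was about that of any genes. The median log2 fold change was -0.02 for the members and -0.02 for all genes tested. Scaling by library totals in place of edgeR's TMM method shifts all log2 values of this comparison by -0.12, which is smaller than every called value here.

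Of the 12 members that fell in arp6, AT2G18193 and CYP81D8 had the largest changes. AT2G18193 had 1.69, 2.23 and 1.68 CPM in arp6 against 28.9, 32.9 and 33.4 CPM in Col-0 (log2 fold change -3.99 ± 0.15, edgeR adjusted p = 2.63e-50). CYP81D8 had 3.96, 3.49 and 4.36 CPM in arp6 against 44.9, 46 and 45.5 CPM in Col-0 (-3.39 ± 0.12, edgeR adjusted p = 1.27e-53). WRKY25 had 11.9, 8.24 and 11.9 CPM in arp6 against 34.5, 34.6 and 33.7 CPM in Col-0 (-1.54 ± 0.10, edgeR adjusted p = 6.01e-28). All 3 arp6 libraries of these genes lay far below every Col-0 library. AT3G45730 (-2.13 ± 0.18, edgeR adjusted p = 4.01e-21) and ABCA10 (-1.97 ± 0.47, edgeR adjusted p = 0.000188) fell as well. Some of the genes grouped above under DNA replication, recombination and repair also fell, where 25.5% of all genes were called lower. They were POLD4 (-1.05 ± 0.14, edgeR adjusted p = 1.7e-10), AHP2 (-1.13 ± 0.34, edgeR adjusted p = 0.00391), TRFL10 (-0.83 ± 0.23, edgeR adjusted p = 0.00105), TK1a (-0.39 ± 0.13, edgeR adjusted p = 0.00632) and AT2G45460 (-0.37 ± 0.14, edgeR adjusted p = 0.0179). The rest of that group was not called, as given below. The call of TK1a was lost without Col-0 replicate 1 (edgeR adjusted p = 0.0809), and that of AT2G45460 without Col-0 replicate 3 or arp6 replicate 2 (edgeR adjusted p = 0.121 and 0.0512). The other 2 that fell were AT1G07135 (-0.72 ± 0.18, edgeR adjusted p = 0.000335) and AT5G48020 (-0.48 ± 0.09, edgeR adjusted p = 1.33e-06).

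Of the members put together above with the chromatin and nucleolar genes, HDA18, NUC-L2, chr31 and AT1G59660 were called higher in arp6, where 24.2% of all genes were. The group was made by hand, so nothing is read from how many of it were called. The others of that group were not called. Their log2 fold changes were -0.03 ± 0.52 for AT5G58610, -0.36 ± 0.19 for ET2, 0.19 ± 0.24 for AT3G02820, 0.07 ± 0.21 for AT5G03440 and 0.11 ± 0.14 for AT4G02110. HDA18 had 3.47, 2.23 and 4.03 CPM in arp6 against 0.504, 0.859 and 0.64 CPM in Col-0 (log2 fold change 2.38 ± 0.37, edgeR adjusted p = 1.9e-08). NUC-L2 had 7.63, 5.17 and 6.94 CPM in arp6 against 2.39, 1.61 and 0.896 CPM in Col-0 (2.14 ± 0.26, edgeR adjusted p = 1.66e-12). chr31 had 3.77, 2.65 and 2.91 CPM in arp6 against 0.504, 0.967 and 1.15 CPM in Col-0 (1.95 ± 0.35, edgeR adjusted p = 6.75e-07). HDA18, NUC-L2 and chr31 were above every Col-0 library in all arp6 libraries, and higher still in atchz1ab arp6. The RING finger gene AT5G60250 rose most (2.87 ± 0.33, edgeR adjusted p = 1.56e-13), and AT5G25230 (2.31 ± 0.34, edgeR adjusted p = 4.69e-09), AT1G59660 (1.27 ± 0.20, edgeR adjusted p = 1.72e-08), ABCC9 (0.69 ± 0.11, edgeR adjusted p = 8.08e-08) and AT1G23410 (0.68 ± 0.17, edgeR adjusted p = 0.000278) rose too. The rest of the DNA replication and repair group, NAC044, TIL1, PARP1 and AT1G51130, was not called. Their log2 fold changes were -0.45 ± 0.36, 0.10 ± 0.09, -0.01 ± 0.13 and -0.46 ± 0.23.

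**Figure D3:**
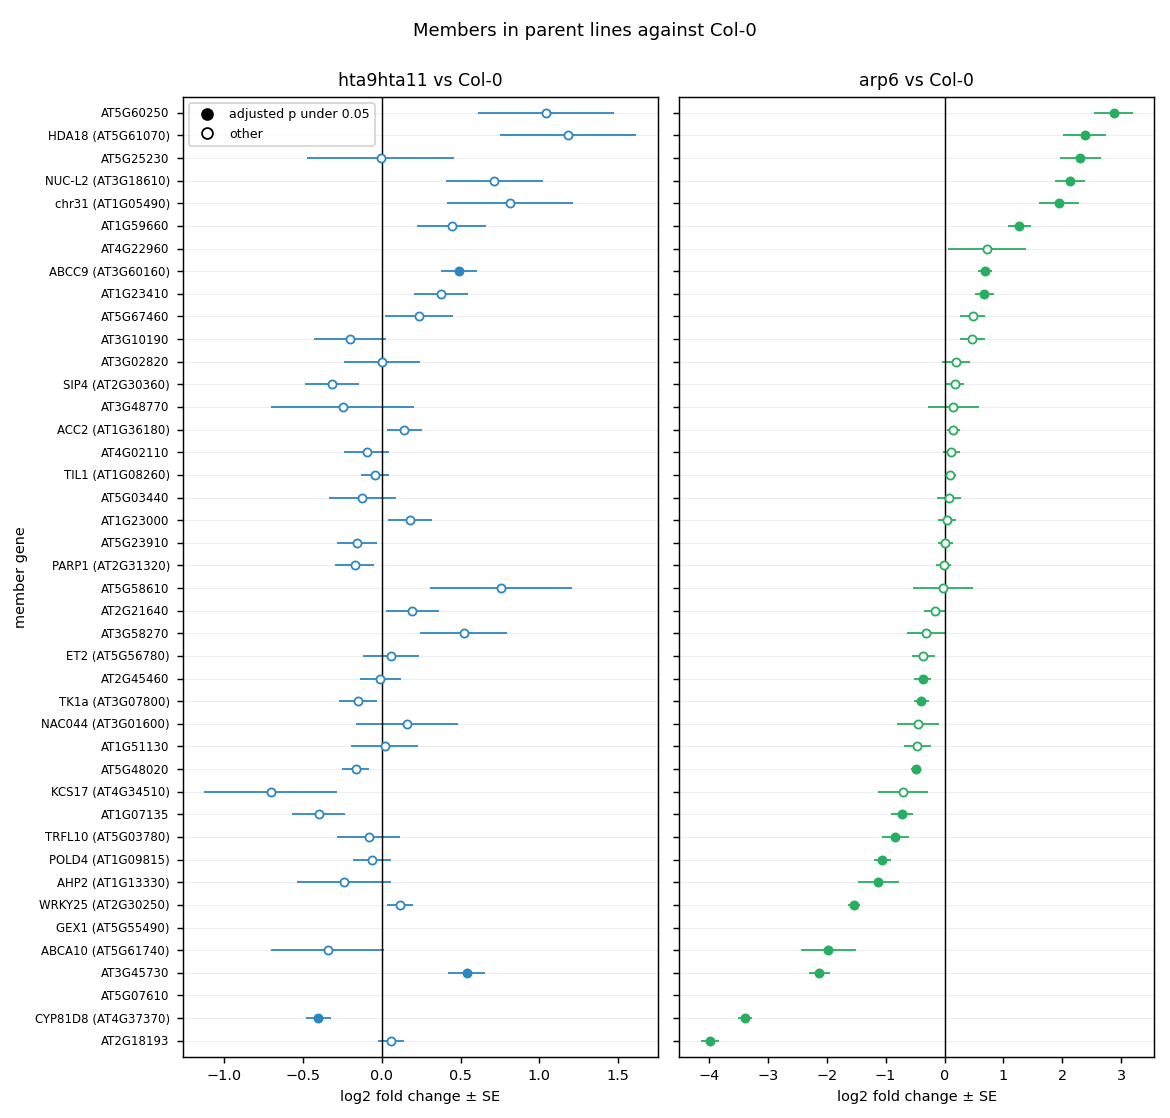
Log2 fold change with its standard error (x axis) of each member (y axis) in hta9hta11 against Col-0 on the left and in arp6 against Col-0 on the right, both with 3 libraries per genotype; filled points had an edgeR adjusted p under 0.05, and members with 3 counts or fewer in a genotype have no point there (GEX1 and AT5G07610 in both panels, AT4G22960 on the left). The 3 filled points on the left lie within 0.54 of 0, while the 20 on the right run from -3.99 to 2.87.

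Whether the change with atchz1ab had the same size in another background was asked with an interaction term, the log2 change in the mutant background minus that between atchz1ab and Col-0. The term is the difference of the within-pair changes that chose the members, so its values are given as a description, with the calls of the edgeR fit over all genes beside them and no p. For hta9hta11, 4 members were called, all with a smaller change in the hta9hta11 pair and 0 with a larger one. This is 9.52% of the 42, where 7.15% of all genes were called (3.41% higher and 3.74% lower), and the median over the members was -0.05. AT3G45730 had an interaction of -1.32 ± 0.15 on the log2 scale, AT2G18193 of -1.14 ± 0.11, AT2G21640 of -0.88 ± 0.22 and WRKY25 of -0.43 ± 0.11. For these genes, all atchz1ab hta9hta11 libraries lay below all atchz1ab libraries.

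For arp6, 7 members were called, all with a larger change in the arp6 pair, 16.7% of the 42, where 13.7% of all genes were called (6.38% higher and 7.35% lower). The median over the members was 0.12. This and the other medians of log2 fold changes include GEX1, AT5G07610 and AT4G22960, whose fitted values depend on the prior count. Among those called, ABCA10 had the largest term, 2.64 ± 0.54 on the log2 scale, with ratios of 9.71 in the arp6 pair and 1.4998 in the Col-0 pair. TRFL10 had 0.91 ± 0.27, AT2G18193 0.88 ± 0.22, POLD4 0.79 ± 0.18, AT2G45460 0.58 ± 0.18, AT5G48020 0.45 ± 0.12 and ACC2 0.42 ± 0.15. The call of ACC2 was lost in DESeq2, with no count filter and when any of 8 libraries was left out, that of TRFL10 without arp6 replicate 2, and that of AT2G45460 without Col-0 replicate 3 or atchz1ab replicate 2. Terms of the other sign were called for SIP4 without atchz1ab replicate 2 and for AT5G60250 without arp6 replicate 1 or 2. Of the 7 genes, all but ACC2 were among the members that fell in arp6 against Col-0, a comparison that shares the arp6 and Col-0 libraries with the term. In atchz1ab arp6, TRFL10 averaged 10.7 ± 1.07 CPM and in atchz1ab 10.6 ± 0.511 CPM, and AT5G48020 averaged 43.9 ± 4.03 CPM and 47.2 ± 2.3 CPM (SD, n = 3 each). AT2G18193 averaged 11.2 ± 0.996 CPM in atchz1ab arp6 and 101 ± 4.9 CPM in atchz1ab.

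**Figure D4:**
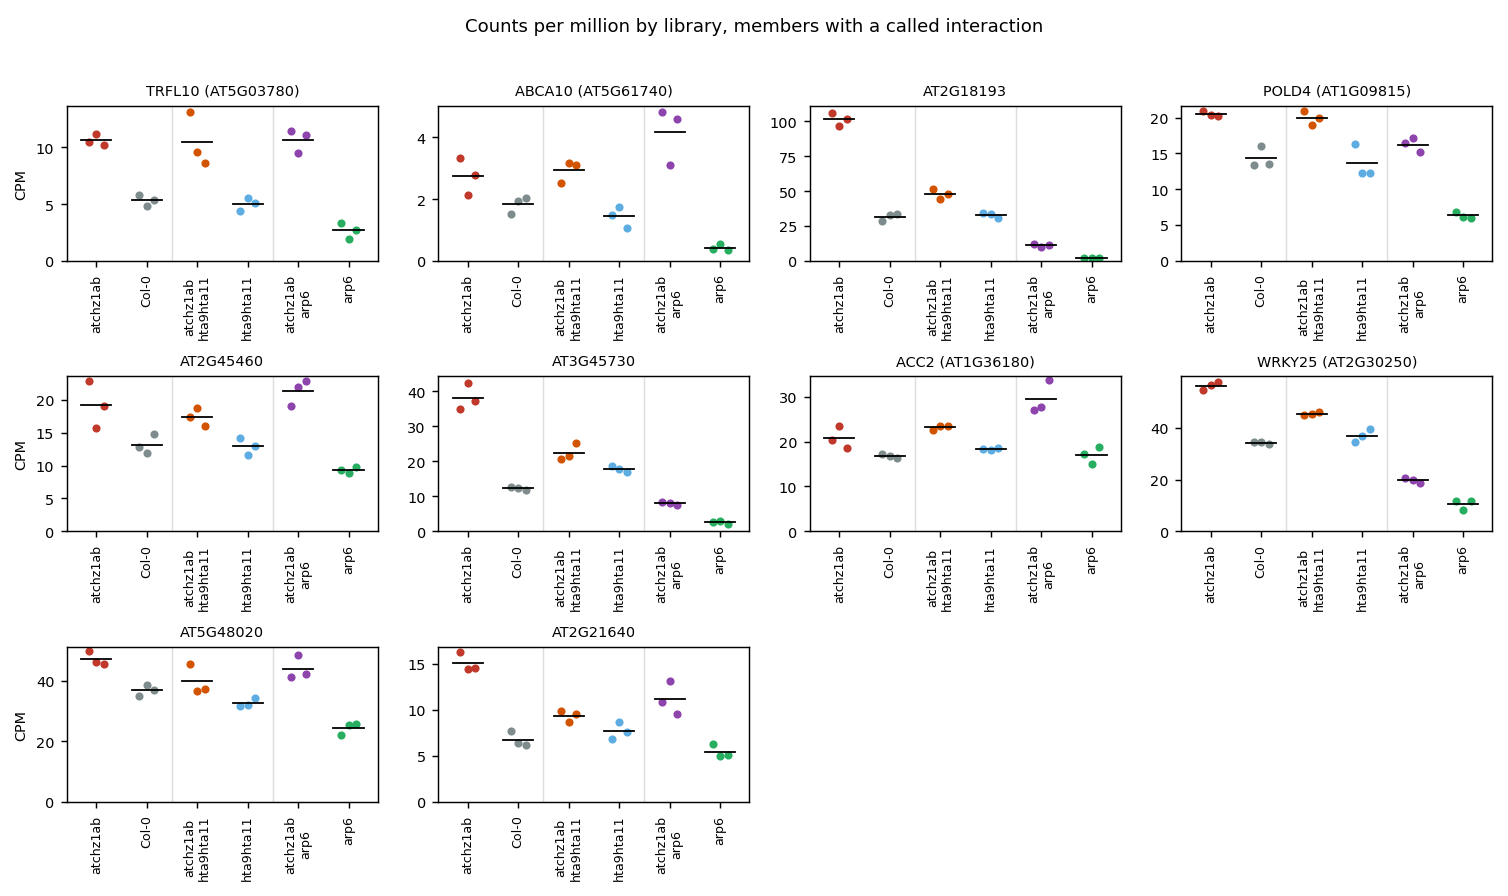
CPM (y axis, from 0) in each library of 6 genotypes (x axis) for the 10 members with a called interaction in edgeR; points are libraries and black bars are means. In AT3G45730 and AT2G18193 the gap of the hta9hta11 pair is narrower than that of the Col-0 pair, and in ABCA10 and TRFL10 the gap of the arp6 pair is wider.

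Promoters were read from 250 bases before to 50 bases after each gene start and searched on both strands for 8 motifs; a match says only that the letters are there. The SOG1 sequence (CTT, any 7 bases, AAG) was in 9 of 42 member promoters, 21.4% with a 95% Wilson interval of 11.7 to 35.9, and in 10.7% of the promoters of all 18201 genes with a RefSeq match. Its 10 matches are in NAC044, AT2G18193, AT2G21640 (which has 2), NUC-L2, CYP81D8, AT5G23910, AT1G23000, AT3G10190 and AT1G23410, and 9 of them start before the gene start, the exception being the match in AT1G23410. The SOG1 and G-box patterns read the same on both strands, and no SOG1 match overlapped a match of another motif. Of the 9 members that reached 2-fold in all pairs, NAC044 alone holds it. Stretches of 60 bases of the RefSeq build TAIR10.1 are shown because the sequence is the known binding sequence of the factor described above. The 6 genes shown are examples, and AT1G23000, AT3G10190, AT1G23410 and the other match of AT2G21640 are not shown. The motif is in capitals and each stretch is read along the strand of its gene.
NAC044, chr3:228987-229046, plus strand: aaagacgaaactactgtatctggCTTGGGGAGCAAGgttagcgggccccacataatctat
AT2G18193, chr2:7919382-7919441, minus strand: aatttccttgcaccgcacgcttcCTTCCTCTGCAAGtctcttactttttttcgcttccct
AT2G21640, chr2:9254304-9254363, plus strand: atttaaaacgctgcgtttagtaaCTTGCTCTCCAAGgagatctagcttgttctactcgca
NUC-L2, chr3:6408100-6408159, minus strand: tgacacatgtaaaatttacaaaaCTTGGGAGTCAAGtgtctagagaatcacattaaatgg
CYP81D8, chr4:17571847-17571906, minus strand: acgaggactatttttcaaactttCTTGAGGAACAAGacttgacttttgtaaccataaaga
AT5G23910, chr5:8068046-8068105, plus strand: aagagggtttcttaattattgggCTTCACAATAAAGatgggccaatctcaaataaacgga
The motif lies 65 bases before the gene start in NAC044, 73 in AT2G18193, 51 in the match shown of AT2G21640, 190 in NUC-L2, 140 in CYP81D8 and 152 in AT5G23910.

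The E2F sequence TTTCCCGC, known from genes of DNA replication, was in 2 member promoters, 4.76% with an interval of 1.32 to 15.8, and in 0.841% of all. They are AT3G02820 and AT1G51130, the Nse4 subunit, and both are shown because the motif lies near the gene start. It starts 19 bases before the gene start in AT3G02820. In AT1G51130 it starts 4 bases before the gene start and runs across it.
AT3G02820, chr3:611430-611489, plus strand: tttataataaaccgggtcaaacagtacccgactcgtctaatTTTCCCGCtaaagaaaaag
AT1G51130, chr1:18941716-18941745, minus strand, motif on the other strand: tgcctaactatttatgggctcgGCGGGAAA
The other E2F form, TTTGGCGC, was in 0 member promoters, which leaves a Wilson interval up to 8.38%, and in 0.489% of all. The core CNAACGG of the elements of mitotic genes was in 14.3% (6.72 to 27.8) and 6.29% of all, the telo box AAACCCTA in 11.9% (an interval from 5.19) and 5.68%, and the G-box CACGTG in 16.7% (8.32 to 30.6) and 8.97%. The site II core TGGGCC was in 21.4% of the members and 3641 of the 18201 genes, and the evening element AAAATATCT in 0 members and 3.11% of all. With 42 promoters these shares are imprecise, and the intervals cover counting error only and make no allowance for the number of motifs tried.

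**Figure D5:**
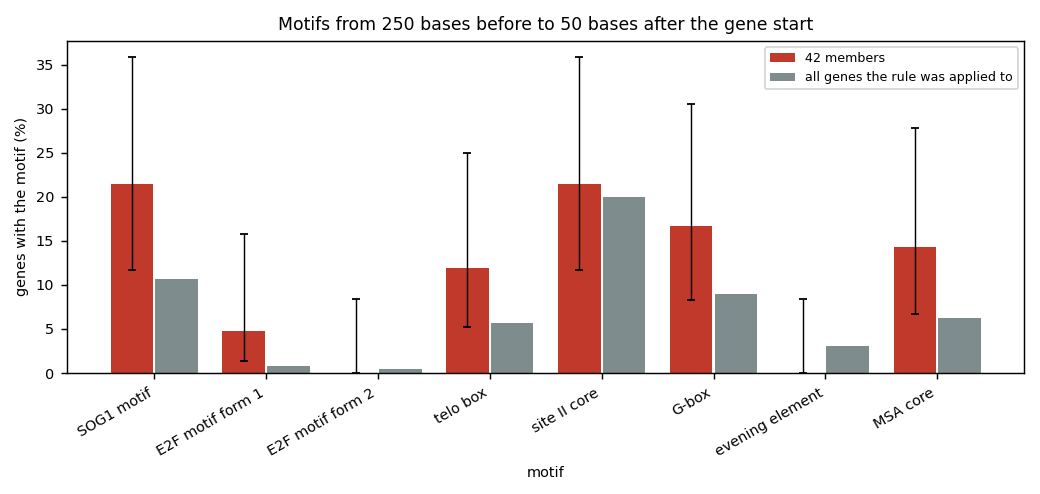
Percent of promoters (from 250 bases before to 50 after the gene start) that hold each of 8 motifs, for the 42 members with 95% Wilson intervals and for all 18201 genes. The SOG1 sequence stands at 21.4% of the members, with an interval from 11.7% to 35.9%, and at 10.7% of all genes. The intervals of TTTCCCGC and CNAACGG also start above the share of all genes. No allowance was made for trying 8 motifs. With 500 bases before the gene start, the SOG1 interval of 17.2% to 43.6% holds the 19.0% of all genes.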

How the data were processed

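RNA from 18 seedling samples (6 genotypes, 3 each) was sequenced by the authors from libraries of a stranded mRNA kit, per the labels' protocols. The authors deposited raw, whole counts per gene in 1 table, with 0 columns left unused. Cutadapt, HISAT2, SAMtools, featureCounts and the build TAIR10 are named, per the submitters' processing notes. Versions and the strand setting of counting: not given in the sources used here.

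CPM are counts over column totals. Tests were edgeR's quasi-likelihood test (edgeR 4.0.16, R 4.3.3, limma 3.58.1) with TMM scaling and filterByExpr, in 1 fit of all 18 libraries with genotype as the only factor and 12 residual degrees of freedom, over 18906 genes that hold 99.9% of the counts. Benjamini-Hochberg adjusted p under 0.05 was the threshold, log2 fold changes carry standard errors, and the common biological coefficient of variation was 3.08%. DESeq2 1.42.0, RLE size factors, no count filter, single comparisons, the replicate number as a block and leaving out each library were alternatives. The tests were tested on simulated counts. All 18 replicate pairs differed by more than sampling noise (chi-square per degree of freedom 1.43 to 1.69).

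The members, the 16 gene lists and the tests were chosen with earlier results of these data known. Named genes are the 25 members with the highest smallest ratio, members in a list, the 5 most changed members called in each comparison the rule did not use, the 3 on each side of the threshold and the 5 most abundant in Col-0, with others added for completeness. Promoters were read by gene ID from the RefSeq genome TAIR10.1, which has the nuclear chromosome sequences of TAIR10, since no promoter table was used here. Near-identical stretches (at least 95% over 100 bases) were found with blastn 2.17.0. Intervals and floors of 3 counts cover counting error only, as the reads carry no molecular identifiers and need not be independent molecules.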

Additional observations from a re-analysis of the deposited data

Results flagged for a closer look

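In 10 members edgeR's interaction term, which asks whether the change with atchz1ab differs between backgrounds, was called in the fit over all genes. The term is made of the changes that chose the members, so it is a description of them and not independent of the rule. With hta9hta11 the term was -1.32 for AT3G45730, -1.14 for AT2G18193, -0.88 for AT2G21640 and -0.43 for WRKY25 (AT2G30250), a smaller change in the hta9hta11 pair. With arp6 it was 2.64 for ABCA10 (AT5G61740), 0.91 for TRFL10 (AT5G03780), 0.88 for AT2G18193, 0.79 for POLD4 (AT1G09815), 0.58 for AT2G45460, 0.45 for AT5G48020 and 0.42 for ACC2 (AT1G36180), a larger change in the arp6 pair. AT2G18193 stands in both. The arp6 term of ACC2 was lost in DESeq2, with no count filter, and without Col-0 replicate 1, 2 or 3, arp6 replicate 1 or 2, atchz1ab arp6 replicate 3, or atchz1ab replicate 1 or 3. The term of TRFL10 was lost without arp6 replicate 2, and that of AT2G45460 without Col-0 replicate 3 or atchz1ab replicate 2.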

How the results depend on the processing

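Membership depended on the cutoffs: a ratio of at least 1.1 gave 76 genes, a ratio of at least 1.5 gave 16, and edgeR calls in all 3 pairs gave 27, of which 19 are among the 42 members. CPM after TMM gave 35 genes, losing AHP2, AT2G21640, AT3G02820, ABCC9, CYP81D8, AT5G03440 and AT5G25230, and CPM on nuclear totals gave 39, losing AHP2, AT2G21640 and ABCC9. A mean of 0.5 or 5 CPM in place of 1 gave 47 and 28 genes, and leaving out 1 library gave 42 to 56 genes, with at least 37 members kept.

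In the comparison atchz1ab hta9hta11 vs hta9hta11 the 330 genes called became 197 in DESeq2 and 219 to 249 without 1 library, and the 22 members called became 15 in DESeq2 and 14 without hta9hta11 replicate 1. Leaving out 1 library gave 3 to 4 members called in hta9hta11 against Col-0, 19 to 23 in arp6 against Col-0, 4 in the interaction with hta9hta11 and 6 to 8 in that with arp6. The motif shares of members in a window of 500 bases, an alternative chosen after seeing the data, were 28.6% (Wilson interval 17.2 to 43.6, which holds the share of all genes) against 19.0% of all genes for the SOG1 sequence and 7.14% against 1.203% for TTTCCCGC. No called value of a member changed sign in any alternative, while several values near 0 that were not called did, such as PARP1 and AT3G48770 in arp6 against Col-0. Calls not made in the text appeared for NUC-L2 without Col-0 replicate 1 and for HDA18 without hta9hta11 replicate 3 (hta9hta11 against Col-0, edgeR adjusted p = 0.0428 and 0.0390), and in arp6 against Col-0 or the arp6 interaction for AT3G10190, ET2, AT5G67460, AT1G23410, SIP4, AT3G48770 and AT5G60250 under at least 1 alternative. Replicate numbers do not pair the samples: the correlations of the 15 same-numbered pairs ran from -0.017 to 0.027. With the replicate number as a block, 324 genes were called in atchz1ab hta9hta11 against hta9hta11, and the members called in the comparisons the rule did not use were 3, 20, 4 and 7, as without it. Members with under 100 summed counts in a group, such as GEX1, AT5G07610 and ABCA10, have ratios that depth leaves imprecise.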

Other observations

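The rule turned round, with every library with atchz1ab below every library without it and ratios of at most 1/1.2, was met by 19 genes, 0.104% of those it was applied to, against 51 upward before genes were left out. At any ratio 55 genes were apart downward and 155 upward. The SOG1 sequence was in the promoters of 4 of the 10 genes the rule leaves out, beside 10.7% of the promoters of all 18201 genes. With 10 genes this share is imprecise, and it was not tested.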
